A study of Mus musculus with 14 samples.

Results

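Peroxisomal fatty acid oxidation was followed through 9 of the 18193 genes measured: Ehhadh, Acaa1a, Hsd17b4, Pex11a, Cat, Abcd2, Abcd3, Pex5 and Pex19. The 9 were listed by name as peroxisomal genes, and each was read from the probe set with a single gene symbol and the highest mean over all 14 arrays. The list was chosen by name around a measured value, the high expression of Ehhadh in late knockdown cells, so the values of Ehhadh are given as a description, with no test, and it is left out of every count. The question was whether the other 8 genes moved with it.

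The cells were 3T3-L1, a mouse preadipocyte line that becomes fat cells in hormone medium. The groups compared were TP53INP2 knockdown cells (KD) at day 7 (4 arrays), control cells at day 7 (4 arrays), KD cells at day 0 (3 arrays) and control cells at day 0 (3 arrays). All cells had been transduced as preadipocytes with a lentivirus, which carried an siRNA sequence against TP53INP2 in KD cells and a scrambled one in controls. Day 7 cells had been in differentiation medium since induction, and day 0 cells were confluent preadipocytes taken before it. The labels name no clone and no separate culture for a replicate, so the p-values reflect the spread from array to array, which may be technical. KD and control cells also differ in the virus they carry, and a lasting difference of that origin cannot be told apart from the knockdown.

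Peroxisomes shorten very long, branched and some long fatty acids. Acyl-CoAs enter through ABC transporters of the ABCD family, an oxidase makes the first double bond and releases hydrogen peroxide, a bifunctional enzyme hydrates and dehydrogenates the chain, and a thiolase splits off acetyl-CoA. Catalase removes the peroxide, and peroxins bring proteins into the organelle and let it grow and divide. In rodent liver the pathway, Ehhadh above all, is known for its induction by PPAR alpha, a nuclear receptor that binds DNA as a pair with RXR at direct repeats of AGGTCA with a single base between them. In fat cells the related receptor PPAR gamma drives differentiation.

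Since the pathway is known as a target of PPAR alpha, the members' start sites were searched for its direct repeat. The stretches before the RefSeq starts (build GRCm38.p6) are shown for Ehhadh, whose level is the subject, and for Cat, which held the match. They cover the 250 bases before each start. Capitals mark the match described after them.
Ehhadh, chr16:21787835-21788084, minus strand: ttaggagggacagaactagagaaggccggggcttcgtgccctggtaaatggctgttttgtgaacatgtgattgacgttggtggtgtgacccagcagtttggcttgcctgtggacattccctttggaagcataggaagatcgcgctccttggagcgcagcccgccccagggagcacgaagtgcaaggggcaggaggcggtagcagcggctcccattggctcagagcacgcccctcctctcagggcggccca
Cat, chr2:103485154-103485403, minus strand: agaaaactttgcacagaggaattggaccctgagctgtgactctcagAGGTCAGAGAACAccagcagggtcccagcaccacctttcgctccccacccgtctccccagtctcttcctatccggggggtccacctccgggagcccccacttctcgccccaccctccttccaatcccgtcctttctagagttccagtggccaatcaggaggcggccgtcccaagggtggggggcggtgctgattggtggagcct
The search took 2 copies of AGGTCA on either strand with 1 base between them and allowed at most 2 mismatches, over 250 bases before to 50 bases after each start. Such a match was present in 1268 of 32841 RefSeq promoters (3.86%). Of the 6 members with a promoter entry, Cat alone had a match, on the strand of the gene and starting at position -204 from the transcription start. The nearest stretch in the Ehhadh window had 4 mismatches, as had the nearest in Abcd3 and Pex5, and those of Acaa1a and Pex11a had 5. A match is a run of letters and no evidence of binding, and sites outside this window were not searched.

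The knockdown was present in these libraries. Trp53inp2 averaged 10.18 ± 0.20 in KD cells and 11.75 ± 0.03 in control cells at day 7 (log2 expression, SD, n = 4 each), and 11.28 ± 0.32 in KD cells and 12.45 ± 0.07 in control cells at day 0 (n = 3 each), with every KD array below every control array of its day. Array medians lay between 5.44 and 5.57. The 6 measured adipocyte markers averaged 10.08 to 10.90 per array in KD cells and 9.32 to 10.43 in control cells at day 7, against at most 7.85 at day 0. Over 7 hepatocyte markers, a cell type rich in Ehhadh, the array mean was 4.15 to 4.46 in day 7 KD cells and 4.14 to 4.37 in day 7 control cells, and 0 of the 7 passed. In such bulk RNA, more cells of a type and more RNA per cell cannot be told apart. Day 7 replicates 1 and 2 lay close together (their difference had an SD across bright genes of 0.132 in KD and 0.0968 in control cells) compared with other pairs of their group (0.24 to 0.476). Results are therefore also given with replicates 1 and 2 averaged into 1. That fit averaged them in all 4 groups, so it left 2 values a group at day 0 as well.

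Ehhadh encodes the peroxisomal bifunctional enzyme that hydrates and oxidises straight-chain acyl-CoAs. It was high in 1 of the 4 groups, KD cells at day 7. Its log2 expression was 5.27, 5.27, 4.98 and 5.10 in KD cells and 2.76, 3.10, 3.12 and 2.74 in control cells at day 7. At day 0 it was 2.79, 2.78 and 3.04 in KD cells and 2.90, 3.33 and 2.73 in control cells. The lowest day 7 KD array stood 1.86 above the highest day 7 control array, while the day 0 groups overlapped. The day 7 difference, KD minus control, was 2.23 ± 0.14 (SE), a 4.68-fold higher level. At day 0 it was -0.12 ± 0.16. In order of level, day 7 KD cells (mean 5.16 ± 0.14, SD) stood first, and the means of the other 3 groups, 2.87 to 2.99, lay within their SDs of 0.14 to 0.31.

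The level behind this fold was low. In the day 7 KD arrays 37.1% to 39.8% of genes had a lower value than Ehhadh, and in the 7 control arrays 9.43% to 18.5% did. Control levels thus lay near the bottom of the scale, where this kind of array compresses differences. There is no detection call, so the size of the fold is uncertain. The gene has 1 probe set with a single gene symbol, so no other probe set read here bears on it. Probe sets with several symbols, or unnamed here, were not searched for it. Leaving out any single array gave day 7 differences of 2.16 to 2.29, and averaging replicates 1 and 2 gave 2.19.

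**Figure D1:**
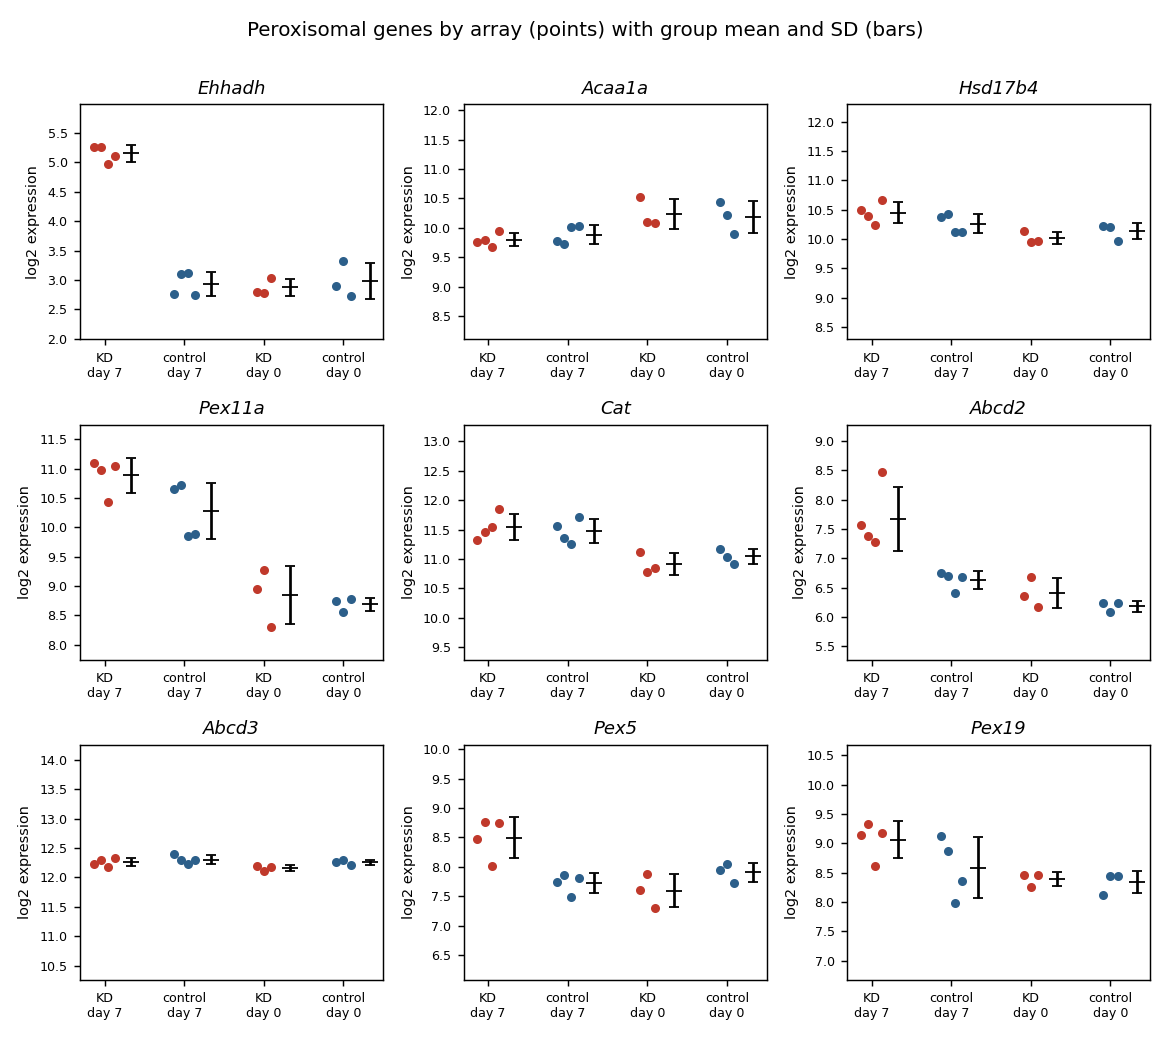
Log2 expression of the 9 genes by array (points), with the mean and SD of each group beside them; KD cells are red and control cells blue, at day 7 (n = 4 each) and day 0 (n = 3 each), and every panel spans the same number of log2 units or slightly more. Ehhadh lies between 4.98 and 5.27 in day 7 KD cells and at 3.33 or below in the other groups. The day 7 groups of Abcd2 and Pex5 do not overlap either. How many of all genes separate in this way was not counted.

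At day 7 the rise was shared by 2 of the 8 other members. The transporter gene Abcd2 and the import receptor gene Pex5 were higher in KD cells, 0 were lower and 6 did not pass. Over all genes, 6.58% were called at day 7 and 3.01% were called as higher (limma, Benjamini-Hochberg adjusted p under 0.05 over all 18193 genes). The 8 genes had a median log2 difference of 0.33 and 6 of 8 values above 0, while all genes had a median of -0.02 and 47.1% above 0. The count moved with the processing: it was 0 with replicates 1 and 2 averaged, 0 without day 7 control replicate 3, 1 without day 7 KD replicate 1, 2 or 4, and 1 with the mean of each gene's probe sets. With the beta-actin measure of RNA quality described below as a covariate it was 5. The count over all genes, 1197 before, moved in the same fits. It was 64 (0.352%) with replicates 1 and 2 averaged, 591 without day 7 control replicate 3 and 2804 with the covariate. Without day 7 KD replicate 1, 2 or 4 it was 369 to 461.

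Abcd2 encodes a transporter that carries very long-chain acyl-CoAs into the peroxisome and is abundant in fat tissue. At day 7 its log2 expression was 7.56, 7.37, 7.27 and 8.47 in KD cells and 6.75, 6.70, 6.40 and 6.67 in control cells. All 4 KD arrays lay above all controls, and KD replicate 4 stood furthest out. The difference was 1.04 ± 0.22 (SE, 2.05-fold, adjusted p = 0.0184). It was 1.14 with replicates 1 and 2 averaged (adjusted p = 0.161), 0.96 without control replicate 3 (adjusted p = 0.0518) and 0.56 as the mean of its 4 probe sets (adjusted p = 0.0648). At day 0 it was 6.36, 6.68 and 6.17 in KD cells and 6.24, 6.08 and 6.23 in control cells. These groups overlapped, with a difference of 0.22 ± 0.25 (adjusted p = 0.756). Its other probe sets were not alike at day 7. The next brightest differed by 1.12 ± 0.37 (adjusted p = 0.112 over all probe sets), and the dimmer ones by 0.08 and -0.004.

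Abcd3, the related transporter for branched and long-chain acyl-CoAs, varied little between arrays. At day 7 it averaged 12.26 ± 0.07 in KD cells and 12.30 ± 0.08 in control cells, a difference of -0.04 ± 0.07 with a 95% confidence interval of -0.19 to 0.10. At day 0 all 3 KD arrays (12.11 to 12.20) lay below all 3 controls (12.21 to 12.29). That difference of -0.09 ± 0.08 did not pass (adjusted p = 0.641).

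Pex5 encodes the receptor that takes matrix enzymes, among them those of fatty acid oxidation, from the cytosol into the peroxisome. At day 7 its log2 expression was 8.47, 8.76, 8.02 and 8.75 in KD cells and 7.74, 7.86, 7.49 and 7.81 in control cells. Every KD array lay above every control, the closest by 0.15. The difference was 0.77 ± 0.17 (1.71-fold, adjusted p = 0.0235). It was 0.76 with replicates 1 and 2 averaged (adjusted p = 0.188), and its adjusted p lay between 0.0618 and 0.083 without control replicate 3 or without KD replicate 1, 2 or 4. Its dimmer probe set was also higher in day 7 KD cells, by 0.59 ± 0.13 (adjusted p = 0.0282 over all probe sets).

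At day 0 the Pex5 values ran the other way, at 7.61, 7.87 and 7.31 in KD cells and 7.94, 8.05 and 7.72 in control cells. The KD array was the lower one in each of the 3 replicate numbers, although the groups overlapped, and the difference of -0.31 ± 0.20 did not pass (adjusted p = 0.513). The dimmer probe set had 0.12 there, so the sign at day 0 rests on the brighter one. The day 7 effect exceeded the day 0 effect by 1.08 ± 0.26, which did not pass over all genes (adjusted p = 0.129). It passed with the replicate number as a block within each day (adjusted p = 0.0291) and without day 7 KD replicate 3 (adjusted p = 0.0266). By the dimmer probe set the excess was 0.47 (adjusted p = 0.748).

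Pex19, the chaperone that delivers peroxisomal membrane proteins, was at 9.14, 9.33, 8.61 and 9.17 in KD cells and 9.12, 8.88, 7.98 and 8.36 in control cells at day 7. Replicate 3 was the lowest of both groups and the groups overlapped, with 3 of 4 KD arrays above all controls. The difference of 0.48 ± 0.22 did not pass (adjusted p = 0.22). Its other probe sets differed by 0.64 ± 0.20 (adjusted p = 0.0932) and 0.65 ± 0.19 (adjusted p = 0.0724 over all probe sets). At day 0 the probe set used had 0.06, and these had 0.21 (adjusted p = 0.725) and 0.63 (adjusted p = 0.151). By the last of them the difference was thus about as large at day 0 as at day 7.

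Pex11a encodes the membrane protein that elongates and multiplies peroxisomes and is a PPAR alpha target in mouse liver. It was at 11.09, 10.98, 10.43 and 11.03 in KD cells and 10.66, 10.71, 9.85 and 9.89 in control cells at day 7. KD replicate 3 stood apart from the other KD arrays and lay within the control range, and the other 3 lay above all controls. The difference of 0.60 ± 0.25 did not pass (adjusted p = 0.161), and the second probe set had a like value of 0.66 ± 0.25 (adjusted p = 0.167 over all probe sets). At day 0 the difference was 0.16 ± 0.29 (adjusted p = 0.865).

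Among the members, the enzyme genes Hsd17b4, Acaa1a and Cat did not pass at day 7 by the probe sets used. The thiolase gene Acaa1b, which is not a member, did pass and is given below. Hsd17b4, the bifunctional enzyme for branched chains and bile acid precursors, was at 10.50, 10.40, 10.24 and 10.67 in KD cells and 10.37, 10.42, 10.12 and 10.13 in control cells. The groups overlapped, and the difference was 0.19 ± 0.11 (adjusted p = 0.344). Its dimmer probe set was higher in KD cells by 0.45 ± 0.11 (adjusted p = 0.0417 over all probe sets), so its call depends on the probe set. Acaa1a, a thiolase of the last step, averaged 9.79 ± 0.11 in KD cells and 9.89 ± 0.16 in control cells, a difference of -0.09 ± 0.14 (95% confidence interval -0.39 to 0.21). Catalase, gene Cat, averaged 11.54 ± 0.22 in KD cells and 11.47 ± 0.20 in control cells, a difference of 0.07 ± 0.13 (interval -0.21 to 0.36). The second probe set of Cat had 0.29 ± 0.19 (adjusted p = 0.452 over all probe sets), with an interval of -0.12 to 0.71, so the bound for Cat depends on the probe set.

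**Figure D2:**
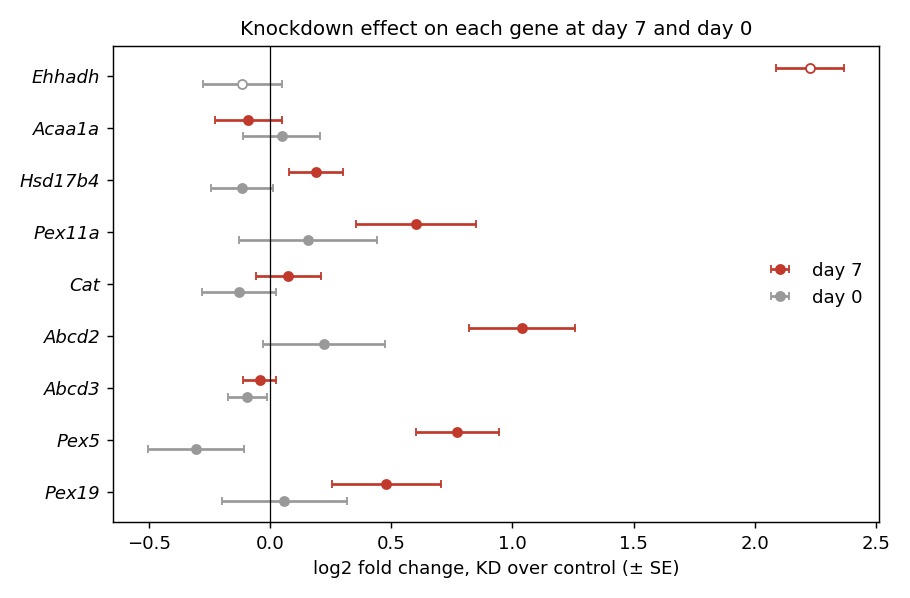
Log2 fold change, KD over control (± SE of the fit), for the 9 genes at day 7 (red, 4 arrays a group) and day 0 (grey, 3 arrays a group); Ehhadh is drawn open because it was not tested. At day 7 Ehhadh stands at 2.23, Abcd2 at 1.04 and Pex5 at 0.77, and Acaa1a, Cat and Abcd3 lie within 0.09 of 0.

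At day 0, 0 of the 8 members passed, against 1.8% of all genes by the same limma test (85 higher and 243 lower, and 76 and 441 with all arrays shifted to 1 median). Unadjusted p was under 0.05 for 2808 of all genes and for 0 of the 8, whose adjusted p lay between 0.513 and 0.953. By the probe sets used, their day 0 differences ran from -0.31 for Pex5 to 0.22 for Abcd2, with a median of -0.02 beside -0.05 over all genes.

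The test of the difference between the day 7 and day 0 effects called 0.022% of all genes (3 higher and 1 lower, and 1 higher under quantile normalization) and 0 of the 8 members, with 2403 genes at an unadjusted p under 0.05. The values were 1.08 ± 0.26 for Pex5, 0.82 ± 0.33 for Abcd2 (adjusted p = 0.316) and -0.14 to 0.45 for the other 6. For Ehhadh the value was 2.34 ± 0.22, given as a description. With the replicate block within each day the count over all genes was 196 (1.08%), and 1 of the 8 members passed, Pex5.

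Within a day, same-numbered arrays shared deviations from their group means, so differences within a number were also taken. At day 7 Ehhadh differed by 2.51, 2.17, 1.86 and 2.37 in replicates 1 to 4. Pex5 was higher in KD cells in 4 of 4 numbers (0.52 to 0.94), as were Abcd2 (0.67 to 1.80), Pex11a (0.26 to 1.14) and Pex19 (0.01 to 0.81). Hsd17b4 and Cat were higher in 3 of 4, Abcd3 in 2 of 4 and Acaa1a in 1 of 4. How many of all genes were higher in 4 of 4 numbers was not counted. Replicate 4 held the largest KD excess of Abcd2, Pex5, Pex11a, Pex19, Hsd17b4 and Abcd3, but not of Ehhadh.

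**Figure D3:**
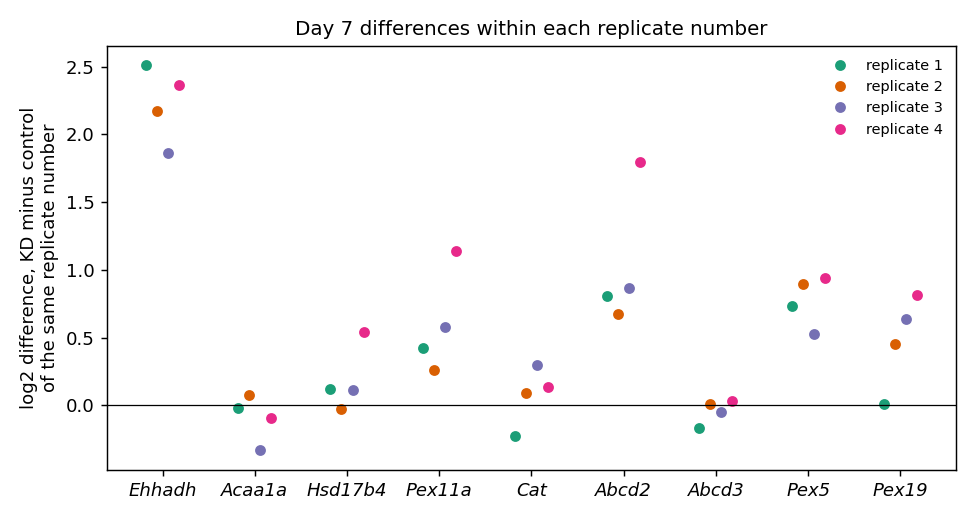
Day 7 log2 difference between the KD and the control array of the same replicate number, 1 point a number, for the 9 genes. All 4 points of Ehhadh, Abcd2, Pex5, Pex11a and Pex19 lie above 0, those of Ehhadh at 1.86 to 2.51.

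The knockdown effects at day 7 can also be read through differentiation. From day 0 to day 7 in KD cells, 7 of the 8 members passed, 6 higher and 1 lower, where 35.8% of all genes were called. In control cells 2 of the 8 passed, both higher, where 22.9% of all genes were called. These contrasts and the day 7 knockdown contrast share arrays. A member that passed in KD cells and not in control cells is not thereby shown to differ, and the test of that difference, given above, called none of the 8.

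Pex11a rose most among the 8 in both lines, by 2.04 ± 0.27 in KD cells (adjusted p = 7.32e-05) and by 1.59 ± 0.27 in control cells (adjusted p = 0.00102). Cat rose by 0.63 ± 0.14 in KD cells (adjusted p = 0.0038) and by 0.43 ± 0.14 in control cells (adjusted p = 0.0493). The call of Cat in control cells was lost when replicates 1 and 2 were averaged (0.46, adjusted p = 0.154) and without any 1 of several single arrays (adjusted p up to 0.159). Abcd2 rose by 1.27 ± 0.24 in KD cells (adjusted p = 0.000969) and had 0.45 ± 0.24 in control cells (adjusted p = 0.209). Pex5 rose by 0.90 ± 0.19 in KD cells (adjusted p = 0.0019) and had -0.18 ± 0.19 in control cells (adjusted p = 0.575).

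Pex19 and Hsd17b4 rose in KD cells, by 0.67 ± 0.24 (adjusted p = 0.0474) and 0.43 ± 0.12 (adjusted p = 0.0123), and had 0.25 ± 0.24 (adjusted p = 0.546) and 0.13 ± 0.12 (adjusted p = 0.518) in control cells. The call of Pex19 in KD cells was lost under 14 of 24 alternatives, 11 of which left out a single array (adjusted p up to 0.198 over all 24). Acaa1a was the member that fell in KD cells (-0.44 ± 0.15, adjusted p = 0.0354), and it had -0.30 ± 0.15 in control cells (adjusted p = 0.182). Its call in KD cells was lost under 6 alternatives, 4 of which left out a single array (adjusted p up to 0.182). Its dimmer probe set had -0.45 and -0.32. Abcd3 passed in neither line (0.10 ± 0.07 in KD cells, 0.05 ± 0.07 in control cells). With replicates 1 and 2 averaged, 4 members passed in KD cells and 1 in control cells. Ehhadh had 2.29 ± 0.15 in KD cells and -0.06 ± 0.15 in control cells, so control cells reached day 7 with a level within 0.06 of day 0.

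**Figure D4:**
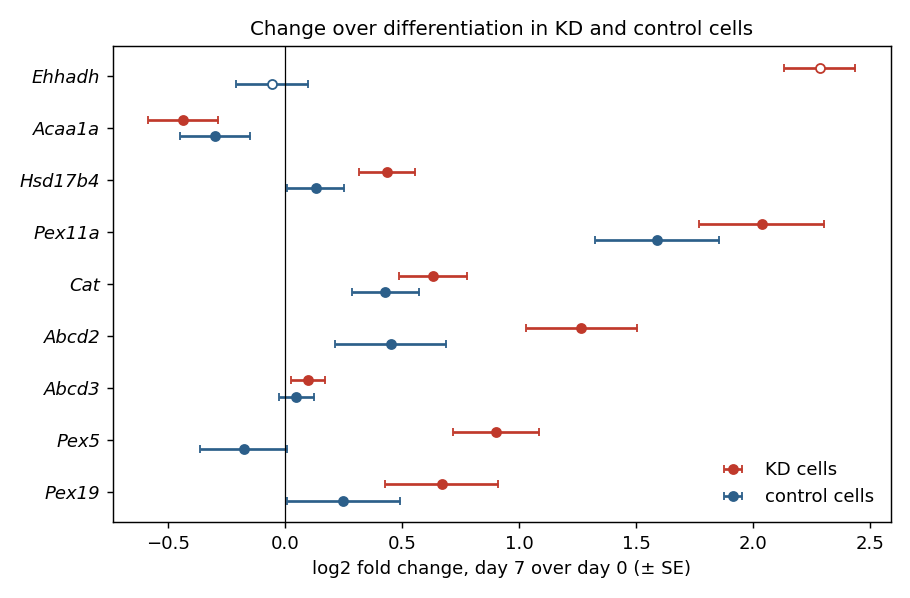
Log2 fold change from day 0 to day 7 (± SE of the fit) in KD cells (red) and control cells (blue) for the 9 genes; Ehhadh is drawn open because it was not tested. Ehhadh is at 2.29 in KD and -0.06 in control cells, while Pex11a is above 1.5 in both.

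The wider peroxisome was read from 4 lists of other genes, for oxidation enzymes, membrane transport, peroxins and fission, and redox and other matrix enzymes, which held 61 genes of which 54 were measured. At day 7, 3 of the 54 rose in KD cells, 1 fell and 50 did not pass. That is 7.41% called, beside 6.58% of all genes, which is near the background in this unpaired fit. The median of the 54 differences was 0.11 and 33 of 54 lay above 0. The count was 1 (Pex26, lower) with replicates 1 and 2 averaged, 2 without day 7 control replicate 3 or without KD replicate 1, 2 or 4, and 12 without KD replicate 3. With the replicate block within each day it was 16, of which 14 were higher. That is 29.6% of the 54, beside 14.7% of all genes in the same fit. The replicate block across days gave 14 (25.9%), beside 10.2% of all genes. Unpaired fits moved the count as well. With the beta-actin covariate it was 18 of the 54, of which 16 were higher, where 2804 of all 18193 genes were called. Without KD replicate 3, where it was 12, 2885 of all genes were called. Whether the share lay near the background thus depended on the fit.

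Among the 19 oxidation enzymes 1 rose, Acaa1b, a second thiolase gene that in mouse liver is known as the PPAR alpha inducible form. At day 7 its log2 expression was 6.43, 6.73, 6.07 and 6.48 in KD cells and 5.50, 5.68, 4.51 and 4.26 in control cells, with no overlap. The difference was 1.44 ± 0.33 (2.72-fold, adjusted p = 0.0262), and it lost its call with replicates 1 and 2 averaged (1.59, adjusted p = 0.119). At day 0 it was 5.72, 5.55 and 4.98 in KD cells and 3.92, 4.999 and 4.10 in control cells, a difference of 1.08 ± 0.38 that did not pass (adjusted p = 0.192). The day 7 effect exceeded the day 0 effect by 0.37 ± 0.51 (adjusted p = 0.805), unlike the late excess of 2.34 in Ehhadh. Acaa1a and Acaa1b are close copies, and probes may hybridise to both. The other oxidation enzymes had values from -0.21 to 0.51, among them the oxidases Acox2 (0.48 ± 0.34, adjusted p = 0.435) and Acox3 (-0.05 ± 0.12, adjusted p = 0.856) and the sterol carrier and thiolase gene Scp2 (0.49 ± 0.15, adjusted p = 0.0696). With the replicate block within each day 6 of the 19 were higher: besides Acaa1b these were Scp2 (adjusted p = 0.016), the isomerase gene Ech1 (0.26, adjusted p = 0.0373), the carnitine transferase genes Crat (0.37, adjusted p = 0.0475) and Crot (0.39, adjusted p = 0.0397), and the CoA hydrolase gene Nudt19 (0.51, adjusted p = 0.0147). Ech1 was also higher at day 0 with that block (0.39, adjusted p = 0.0341, and 0.184 without it).

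Of the 13 peroxins and fission genes 1 rose and 1 fell at day 7. Fis1, an adaptor for division of peroxisomes and mitochondria, rose by 0.51 ± 0.13 (adjusted p = 0.0371, and 0.248 with replicates 1 and 2 averaged). Pex26, which anchors the machinery that recycles the import receptor Pex5, fell at both days. Its log2 expression was 8.21, 7.84, 8.09 and 8.23 in KD cells and 8.94, 8.93, 8.98 and 8.92 in control cells at day 7. At day 0 it was 8.16, 8.38 and 8.12 in KD cells and 8.96, 8.73 and 8.98 in control cells. No KD array reached a control array at either day. The differences were -0.85 ± 0.10 at day 7 (adjusted p = 0.000737) and -0.68 ± 0.12 at day 0 (adjusted p = 0.0131), and the day 7 call held with replicates 1 and 2 averaged while the day 0 call did not (adjusted p = 0.0998). Pex26 was the 1 of 54 genes that passed at day 0, where 3 passed with the replicate block within each day (5.56%, beside 4.64% of all genes). With that block 5 of the 13 were higher at day 7, with Pex3, Pex10, Pex13 and Pex16 beside Fis1 (differences of 0.34 to 0.93, adjusted p from 0.0106 to 0.0468).

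Of the 17 redox and other matrix enzymes 1 rose at day 7, the matrix protease gene Lonp2 (0.50 ± 0.09, adjusted p = 0.0107, and 0.124 with replicates 1 and 2 averaged). Its values were 9.82, 9.85, 9.78 and 10.13 in KD cells and 9.46, 9.56, 9.26 and 9.32 in control cells, with no overlap. With the replicate block within each day 3 of the 17 were higher and 1 lower, among them Gnpat, which starts ether lipid synthesis (0.93, adjusted p = 0.00654), and Far1, which makes its fatty alcohols (-0.37, adjusted p = 0.0253). Of the 5 membrane transport genes 0 passed at day 7, with values from 0.10 to 0.30. The difference between the days called 0 of the 54.

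Over differentiation, 22 of the 54 passed in KD cells (18 higher, 4 lower; 40.7%) and 13 in control cells (11 higher, 2 lower; 24.1%), beside 35.8% and 22.9% of all genes. In control cells the largest rises were in the membrane channel gene Pxmp2 (1.19 ± 0.26, adjusted p = 0.0061), the peroxin gene Pex16 (1.18 ± 0.29, adjusted p = 0.0103) and the sarcosine oxidase gene Pipox (0.99 ± 0.33, adjusted p = 0.045, and 0.0632 with the replicate block within each day). In KD cells they had 1.20, 1.97 and 0.52. The 2 that fell were Decr2, a reductase for unsaturated chains (by 0.72, adjusted p = 0.00147), and Phyh, which starts the breakdown of phytanic acid (by 0.66, adjusted p = 0.0014). In KD cells they had -0.76 and -0.99.

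Mitochondrial fatty acid oxidation and the receptors known to act on the pathway were set beside it. Of 18 mitochondrial genes 17 were measured. At day 7, 23.5% of them were called, beside 6.58% of all genes called and 3.01% called as higher. Of the 17, 0 fell, 13 did not pass and 4 rose. They were the short-chain dehydrogenase gene Acads (0.83 ± 0.17, adjusted p = 0.0152), Decr1 (0.43 ± 0.11, adjusted p = 0.0346), the trifunctional protein gene Hadha (0.58 ± 0.15, adjusted p = 0.0383) and the electron transfer gene Etfb (0.54 ± 0.14, adjusted p = 0.044). None of the 4 passed with replicates 1 and 2 averaged (adjusted p from 0.144 to 0.244), and Decr1 had -0.13 by its probe set of largest interquartile range. With the replicate block within each day 8 rose and 0 fell (47.1% called). In that fit 14.7% of all genes were called, 1371 higher and 1309 lower. That block also called Hadha (0.54, adjusted p = 0.0341) and Etfb (0.45, adjusted p = 0.0349) as higher at day 0, where neither passed without it (adjusted p = 0.15 and 0.203). The list's median was 0.36. In differentiation 16 of the 17 rose and 0 fell in KD cells, 94.1% called beside 35.8% of all genes (3455 higher, 3051 lower). In control cells 12 rose and 0 fell, 70.6% called beside 22.9% of all genes (1842 higher, 2320 lower).

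Of the 8 PPAR, RXR and coactivator genes 0 passed at day 7 or day 0. With the replicate block within each day 2 were higher at day 7 and 0 lower. That is 25% called, beside 14.7% of all genes called in either direction. At day 7 Pparg, the receptor of fat cell differentiation, had 0.50 ± 0.18 (adjusted p = 0.115, and 0.0316 with that block), and the coactivator gene Ppargc1a had 0.65 ± 0.22 (adjusted p = 0.0939, and 0.0339 with it). Ppara had 0.24 ± 0.18 (adjusted p = 0.476) and Ppargc1b 0.85 ± 0.41 (adjusted p = 0.236).

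Of 14 other measured genes known to respond to PPARs, 0 passed at day 7. Their median was -0.10 and 4 of 14 lay above 0. The replicate block within each day called 5 (35.7%, beside 14.7% of all genes). Of these 1 was higher, the malic enzyme gene Me1 (0.38, adjusted p = 0.0334), and 4 were lower: the thioesterase gene Acot1 (-1.03, adjusted p = 0.00402), the fatty acid hydroxylase gene Cyp4a14 (-0.49, adjusted p = 0.015), Pdk4, which restrains glucose oxidation (-0.51, adjusted p = 0.0202), and Angptl4, an inhibitor of lipoprotein lipase (-0.48, adjusted p = 0.0485). At day 0 the hormone gene Fgf21 was the 1 of the 14 that passed, lower by -0.75 ± 0.16 in KD cells (adjusted p = 0.0355, and 0.0584 with the block). With the block Acot1 was lower at day 0 as well (-1.34, adjusted p = 0.00518, and 0.12 without it), and Cyp4a14 passed for the difference between days (-0.88, adjusted p = 0.0403, and 0.239 without it).

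**Figure D5:**
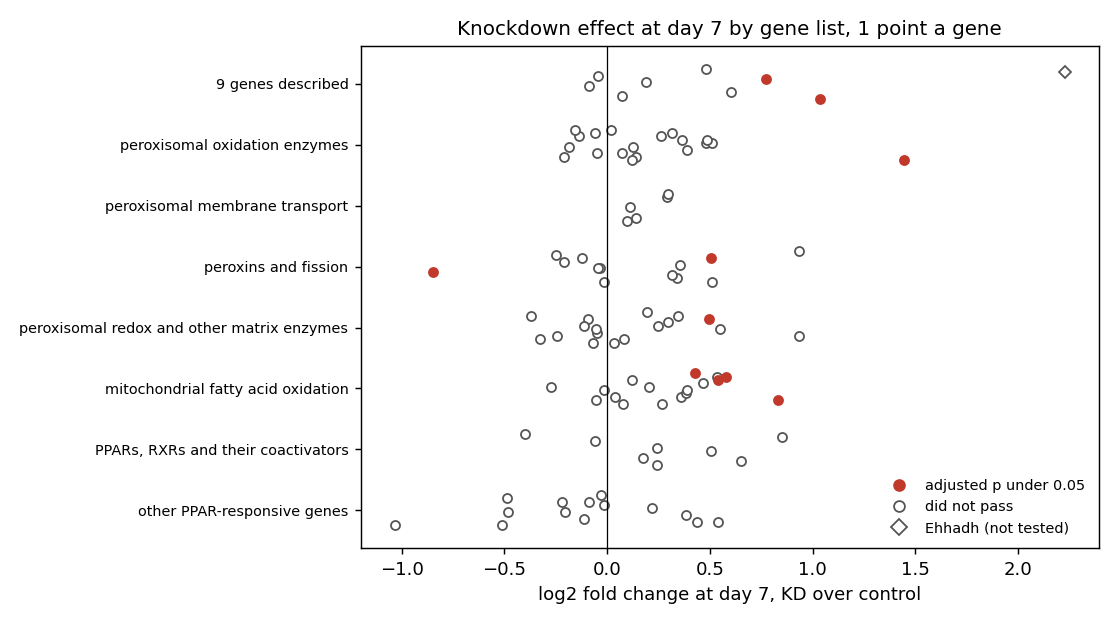
Log2 fold change at day 7, KD over control, 1 point a gene, for the 9 genes described, the 4 wider peroxisomal lists, mitochondrial fatty acid oxidation and the PPAR lists; filled red points passed (adjusted p under 0.05), open points did not, and the diamond is Ehhadh, which was not tested. Ehhadh at 2.23 lies to the right of every other point, the next being Acaa1b at 1.44.

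Marker levels and RNA quality were also compared between the groups. The array mean of the 6 adipocyte markers was higher in day 7 KD cells than in controls by range (10.08 to 10.90 against 9.32 to 10.43), and that of 7 preadipocyte markers was 9.16 to 10.23 in KD and 9.89 to 10.24 in control cells, with overlap in both. Gene by gene, 0 of the 6 adipocyte markers passed at day 7 (5 of 6 values above 0, median 0.51). The largest value was 2.20, of Cidec (adjusted p = 0.0744, and 0.0106 with the replicate block within each day). With that block 1 of the 6 passed (16.7%, beside 14.7% of all genes). All 7 preadipocyte markers had values below 0 (median -0.49), and Pdgfra fell (-0.49 ± 0.13, adjusted p = 0.0436). Over all genes 47.1% of the day 7 values lay above 0, with a median of -0.02. With the block 4 of the 7 preadipocyte markers were lower and 0 higher (57.1% called). In that fit 14.7% of all genes were called, 1371 higher and 1309 lower.

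Among markers of other cell types, the array mean of 5 muscle markers was 4.19 to 4.58 in day 7 KD cells and 4.11 to 4.32 in day 7 control cells, with overlap. Their summed linear level was 178 to 206 in KD and 134 to 162 in control cells, without overlap, so the separation depends on the scale. Of the 5, 1 passed, Des (0.61 ± 0.16, adjusted p = 0.044). Of 6 brown adipocyte markers 1 passed at either day, Dio2, which fell at day 7 (-1.47 ± 0.25, adjusted p = 0.00648) and at day 0 (-2.40 ± 0.29, adjusted p = 0.00129). Of the hepatocyte, macrophage, endothelial and epithelial markers 0 passed at either day. The part of these markers in the results was not tested. The difference between the 3' and 5' control probe sets of beta-actin, a measure of RNA quality, was 3.04 ± 0.28 in KD cells and 3.25 ± 0.31 in control cells at day 7. At day 0 it was 2.98 ± 0.25 in KD cells and 3.54 ± 0.22 in control cells, where the groups did not overlap. The same difference for Gapdh was 1.54 ± 0.15 in KD and 1.63 ± 0.26 in control cells at day 7. At day 0 it was 1.77 ± 0.16 and 2.18 ± 0.22, again without overlap. For the transferrin receptor it was 5.53 ± 0.37 in KD and 5.28 ± 0.31 in control cells at day 7, and 2.73 ± 1.28 and 3.08 ± 0.10 at day 0. As a covariate the beta-actin difference left Ehhadh at 2.21 at day 7, and it turned the day 0 values of Pex5 (0.09), Hsd17b4 (0.16) and Cat (0.11) positive.

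Profiles most like that of Ehhadh over the 14 arrays were found by the root mean square difference after each gene's own mean was taken off. The nearest were Adgrg1 (0.342), Cgnl1 (0.388), Wfdc6a (0.431), Rassf3 (0.439) and Tspan33 (0.454), beside a spread of the Ehhadh profile itself of 1.06 (SD). None of them is a peroxisomal gene of the lists, and each lies on a chromosome other than that of Ehhadh. Adgrg1, an adhesion receptor gene, averaged 7.74 ± 0.29 in KD and 5.36 ± 0.63 in control cells at day 7, and 5.45 ± 0.10 in KD and 5.10 ± 0.19 in control cells at day 0. Among the members Abcd2 was 49th and Pex5 319th of 18192 genes in likeness, and Acaa1a was 13815th. The Ehhadh profile is set mostly by its level in day 7 KD cells, for which the gene was chosen. Likeness to it therefore largely restates the day 7 differences given above and is no separate evidence.

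The genes beside Ehhadh on chromosome 16 did not share its pattern. In RefSeq order these are Ephb3, Vps8 and 2510009E07Rik on one side and Map3k13, Tmem41a and Liph on the other, and Map3k13 was not analysed here. At day 7 Vps8, a subunit of an endosomal tethering complex, fell by 0.37 (adjusted p = 0.033, and 0.201 with replicates 1 and 2 averaged). The other 4 had differences from -0.20 to 0.22 and did not pass (adjusted p from 0.355 to 0.984).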

How the data were processed

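The deposited tables held log2 expression for each probe set on each of 14 arrays. The submitters' processing notes name RMA and the affy package, without a version. That the scale is log2 was read from the range of values, 1.13 to 14.37. Per the labels' protocols, RNA was amplified before labelling. Of 45101 probe sets, 64 control sets were left out, 34945 had 1 gene symbol, 932 several, and 9160 are unnamed here. The probe set with the highest mean stood for each of 18193 genes.

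All arrays entered 1 fit with a mean per group in limma 3.58.1, R 4.3.3 (12.6 degrees of freedom after moderation), with 5 contrasts. Every adjusted p is Benjamini-Hochberg over all genes unless said otherwise, and errors of differences are standard errors. The code was tested on simulated data. There is no detection call, and precision is limited by the small number of arrays.

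The members, gene lists and tests were chosen with earlier results of these data known. Named genes were the 9 members, listed peroxisomal genes called in a knockdown contrast or with the 3 largest called changes each way in control differentiation, called genes of the other lists (at most 4 a list), the 5 nearest profiles, 3 neighbours on each side and Trp53inp2. Other listed genes named were chosen after their values were seen. Within a day, deviations from group means of same-numbered arrays correlated at 0.268 to 0.329 (day 0) and 0.202 to 0.764 (day 7), so the numbers pair the samples by the data, not by a stated design. Across days the correlations ran from -0.096 to 0.239, and a block within each day was added after the data were seen. Promoters and gene order are from RefSeq tables of GRCm38.p6, with promoter entries for 6 of the 9 members. A planned search of protein ends was not run.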

Additional observations from a re-analysis of the deposited data

Results flagged for a closer look

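In day 7 KD cells Pex11a of replicate 3 (10.43) stood apart from the other 3 arrays (10.98 to 11.09), with a gap of 0.835 of the group's range (Dixon's test at 95%). 18 such groups of 4 were looked at, and chance gives about 1 in 20. Pex5 moved in opposite directions at the 2 days in every replicate number, higher in KD cells in 4 of 4 numbers at day 7 and lower in 3 of 3 at day 0. The effects differed by 1.08 (adjusted p = 0.129 by limma over all genes, and 0.0291 with the replicate block within each day), and by its dimmer probe set they did not point in opposite directions.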

How the results depend on the processing

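Over 24 alternatives, 1620 of 1815 values of named genes were counted as unchanged. For tested genes this meant the same direction and side of the threshold. Of their values 158 no longer passed, 10 newly passed and 27 changed sign, among which Decr1 alone had passed before. For Ehhadh, which was not tested, unchanged meant a move smaller than its SD within groups, whatever the sign. The causes were not tested, but the averaged fit has fewer samples. Dim Ehhadh was not in the fit without the dimmest 40% of genes.

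Members called at day 7 (2) were 1 with the mean of a gene's probe sets, 0 with replicates 1 and 2 averaged, 5 with the beta-actin covariate and 0 to 2 without 1 array each. For the difference between days (0) they were 1 with the replicate block across days, 1 with the replicate block within each day and 0 to 1 without 1 array each. In KD differentiation (7) they were 4 with replicates averaged. In control differentiation (2) they were 1 with every probe set tested, 1 with arrays shifted to 1 median, 1 with replicates averaged, 4 with the covariate and 1 to 3 without 1 array each.

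Of the wider peroxisomal genes, the day 0 count (1) was 2 with the most variable probe set (by interquartile range), 2 with the replicate block across days, 3 with the replicate block within each day, 0 with replicates averaged, 5 with the covariate and 0 to 1 without 1 array each. The day 7 count (4) was 8 without the dimmest genes, 14 with the replicate block across days, 16 with the block within each day, 1 with replicates averaged, 18 with the covariate and 2 to 12 without 1 array each. In control differentiation (13) it was 4 with replicates averaged and 8 to 18 without 1 array each.

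Over all genes the day 0 count (328) was 498 without the dimmest genes, 517 with arrays shifted to 1 median, 572 with the replicate block across days, 844 with the block within each day, 24 with replicates averaged, 590 with the covariate and 101 to 631 without 1 array each. The day 7 count (1197) was 785 with every probe set tested, 1831 without the dimmest genes, 1850 with the replicate block across days, 2680 with the block within each day, 64 with replicates averaged, 2804 with the covariate and 369 to 2885 without 1 array each. The count for the difference between days (4) was 12 with the most variable probe set, 18 with every probe set tested, 57 without the dimmest genes, 1 under quantile normalization, 26 with the replicate block across days, 196 with the block within each day, 0 with replicates averaged and 1 to 317 without 1 array each. With replicates averaged, KD differentiation (6506) had 4098 and control differentiation (4162) had 1584.

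Signs turned as follows. Ehhadh, whose signs were not counted, had 0.0061 in control differentiation with replicates 1 and 2 averaged. Without 1 array each it ran from -0.24 to 0.056 at day 0 and from -0.18 to 0.11 in control differentiation. With arrays shifted to 1 median, the day 0 values of Acaa1a and Pex19 were -0.021 and -0.0093. With the mean of probe sets, Hsd17b4 at day 0 had 0.028, Abcd3 had -0.010 for the difference between days, -0.13 in KD and -0.12 in control differentiation, and Pex5 had 0.014 in control differentiation. With the most variable probe set, Hsd17b4 had 0.17 and Pex5 0.12 at day 0, Pex5 had 0.21 in control differentiation, Abcd3 had -0.071, -0.36 and -0.29 in the contrasts just named, and Decr1 had -0.13 at day 7. With the covariate, the day 0 values were 0.16 for Hsd17b4, 0.11 for Cat, 0.0032 for Abcd3 and 0.086 for Pex5, the difference between days of Abcd3 was -0.011, and Pex5 had 0.029 in control differentiation. Without 1 array each, Acaa1a ran from -0.10 to 0.18 at day 0 and from -0.27 to 0.0097 for the difference between days, Pex11a from -0.060 to 0.42 and Pex19 from -0.048 to 0.13 at day 0, and Cat from -0.026 to 0.16 at day 7. Among the 8 members the replicate block within each day changed 1 call, that of Pex5 for the difference between days. Its effect on listed genes stands beside their values in the report.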
